A study of Saccharomyces cerevisiae with 14 samples.

Results

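The mRNAs of 10 genes of yeast translation initiation were followed across CRAC libraries of the collision sensor Hel2 and of the elongation factor homolog New1. They were chosen by name from the protein-coding features of the deposited count tables and are *CDC33*, *TIF4631*, *TIF4632*, *TIF1*, *TIF2*, *TIF3*, *PAB1*, *SUI1*, *TIF5* and *FUN12*, 10 of 5838 protein-coding genes used. In CRAC, RNA that was crosslinked to a tagged protein by ultraviolet light in living cells is purified with that protein, trimmed, reverse transcribed and sequenced, so that reads on an mRNA stand for its contact with the bait. All strains derive from BY4741 and differ in the bait and in *NEW1*: *new1Δ* cells with Hel2-HTP at 20°C and 30°C, wildtype cells with New1-HTP at 20°C, wildtype cells with Hel2-HTP at 20°C and 30°C, and cells without a tag at both temperatures, each with 2 replicate libraries. Tagged genes were single copies in the genome with a His6-TEV-protein A (HTP) tag. Cultures of the 2 temperatures were processed by different steps, so the effects of temperature and of the preparation cannot be told apart. Hel2 crosslinking to an mRNA depends both on how much of the mRNA is present and on how much of it Hel2 contacts, and these counts do not separate them.

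During cap-dependent initiation, eIF4E, encoded by *CDC33*, binds the cap of the mRNA and eIF4G, encoded by the paralogs *TIF4631* and *TIF4632*, bridges it to the helicase eIF4A, to the poly(A)-binding protein Pab1 and to the small ribosomal subunit. The helicase is encoded by *TIF1* and *TIF2* and is assisted by eIF4B, the product of *TIF3*. During scanning, eIF1 (*SUI1*) guards the choice of the start codon, eIF5 (*TIF5*) stimulates GTP hydrolysis by eIF2, and eIF5B (*FUN12*) drives joining of the large subunit. New1 is an ATPase related to the fungal elongation factor eEF3, and its absence leads to queues of ribosomes before the stop codon of mRNAs with certain last sense codons. Hel2 is the ubiquitin ligase that marks collided ribosomes.

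Since the last sense codon is the feature by which the study sorted mRNAs, the last 30 coding bases of each gene are shown 5′ to 3′, with the last sense codon in capitals before the stop codon (RefSeq, R64 assembly, coding strand).
CDC33: agacaccctcaaccatcaatcaccTTGtaa
TIF4631: ttaatgggagaaagtgatgacgaaGAGtaa
TIF4632: ttaatgaataacgatggggacagtGATtaa
TIF1: ccatccgacatcgctactttgttgAACtaa
TIF2: ccatccgacattgctaccttgttgAACtaa
TIF3: gacaattgggaagttgttggtaagAAAtag
PAB1: gagcaagaacaacaaactgagcaaGCTtaa
SUI1: aagaagaacattaaaattcatgggTTTtaa
TIF5: agtgacgatgatgaagaagacgacGAAtag
FUN12: aagctgaaggtcgttttcggcatcGAAtga

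*TIF3* was the 1 member that ended on a codon of the class K(AAA), R(AGG) or R(CGU), which held 674 of the 5838 genes (11.5%). *TIF1* and *TIF2* end on AAC, an asparagine codon of the milder class, which joins C, N and S with 3 rare arginine codons and held 936 genes (16.0%). The other 7 members belong to neither class, as do 4228 genes (72.4%). These classes were formed in the study from the same libraries, so they are no independent evidence of a direction. The study also compared the classes with published sequencing of 5′ ends of mRNAs, in which the first class had the strongest signals of queues. The study used ratios of Hel2 reads in the 3′ untranslated region, whereas counts here cover whole features. Changes within that region were therefore not tested. In the study *TIF3*, and *RPG1* and *NIP1* named below, are listed as candidates of no-go decay, which removes mRNAs prone to stalling. The genes lie on chromosomes XV (*CDC33*, 60383 to 61024, minus strand), VII (*TIF4631*, 824059 to 826917, plus strand, and *TIF4632*, 406860 to 409604, minus strand), XI (*TIF1*, 554987 to 556174, plus strand), X (*TIF2*, 153504 to 154691, minus strand), XVI (*TIF3*, 868645 to 869955, minus strand, and *TIF5*, 648704 to 649921, plus strand), V (*PAB1*, 510373 to 512106, plus strand), XIV (*SUI1*, 187170 to 187496, minus strand) and I (*FUN12*, 76427 to 79435, plus strand). Each is the coding sequence without introns, and none overlaps another annotated gene.

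*TIF1* and *TIF2* encode the same protein and differ at 6 of 1188 coding bases. Of the 1114 windows of 75 bases, the read length, along the *TIF1* coding sequence, 79.2% occur without a mismatch in *TIF2*. The region between coding bases 199 and 228, with the differing bases in capitals, shows how sparse the distinguishing positions are.
TIF1: caatctggtactggtaagaccggtacCttT
TIF2: caatctggtactggtaagaccggtacTttC
Reads from the shared stretches can be counted on either copy, so the values of the pair are uncertain one by one, and their sum is given beside them. The paralogs *TIF4631* and *TIF4632* share 50.4% of aligned residues and no window of 30 coding bases, and their reads can be told apart.

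The 10 tagged libraries held between 908646 and 2899277 mapped reads, of which between 330299 and 1433090 fell on the genes used, with 3.02 to 11.3 reads per distinct cDNA. Values below are reads, or reads scaled to a total of 1000000 on those genes (CPM). PCR copies are not independent molecules, so limits for a count of 0 (3 reads) and intervals of shares cover counting error only. On the deleted gene, *NEW1*, *new1Δ* libraries grown at 20°C held 0 and 0 reads, against 363 and 1192 in wildtype Hel2-HTP, and those grown at 30°C held 0 and 7, against 220 and 105. In the headers of the counting program, the input for *new1Δ* Hel2-HTP replicate 2 at 20°C is named as a New1-HTP sample, and the input for New1-HTP replicate 2 as a New1-HTP sample lacking *HEL2*. In both headers the linker barcode is the one of the labelled sample, and the labels were kept. *HEL2* had 170 and 0 reads in *new1Δ* Hel2-HTP, 1 and 143 in New1-HTP and 515 and 315 in wildtype Hel2-HTP at 20°C. The 0 belongs to *new1Δ* replicate 2, the library whose header disagrees with its label. Libraries at 20°C were patchy: between 8.08% and 27.8% of the genes read at least 100 times in 1 library of a group had 3 reads or fewer in its replicate, and at 30°C this share was 0.842% to 5.83%.

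All 10 members had reads in at least 7 of the 10 tagged libraries. *TIF1*, *TIF2*, *TIF5*, *TIF4631*, *FUN12* and *PAB1* were read in all 10, *TIF3* in 9, *CDC33* and *SUI1* in 8, and *TIF4632* in 7. Together they took 0.514% (95% Wilson interval 0.497 to 0.531) and 0.556% (0.531 to 0.582) of the reads in *new1Δ* Hel2-HTP, 0.642% (0.623 to 0.662) and 0.583% (0.568 to 0.598) in New1-HTP, and 0.696% (0.677 to 0.715) and 0.683% (0.670 to 0.697) in wildtype Hel2-HTP at 20°C. At 30°C the share was 0.408% (0.396 to 0.421) and 0.393% (0.374 to 0.413) in *new1Δ* and 0.519% (0.504 to 0.535) and 0.545% (0.522 to 0.570) in wildtype. In libraries without a tag at 30°C it was 0.447% (0.424 to 0.471) and 0.470% (0.390 to 0.565), which lies between the *new1Δ* and the wildtype libraries. Those untagged libraries held 310279 and 23629 reads on genes, and CPM compare shares of reads, not the amounts recovered. The untagged libraries at 20°C had only 356 and 1793 reads on genes, and a count of 0 there still allows 8427 and 1673 CPM. Background of single members at 20°C could therefore not be measured.

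Per length of coding sequence, the mRNAs of the helicase and of Pab1 were the members most read with Hel2 in wildtype cells at 20°C. The order was *TIF2* with 1116 ± 542, *TIF1* with 1030 ± 106, *PAB1* with 1004 ± 153, *CDC33* with 670 ± 12.9, *SUI1* with 594 ± 378, *TIF5* with 274 ± 217, *TIF4631* with 214 ± 65.7, *TIF3* with 201 ± 249, *FUN12* with 192 ± 81.7 and *TIF4632* with 69.8 ± 33.3 CPM per kb (SD, n = 2). Among neighbours in this order, the libraries did not overlap between *PAB1* and *CDC33* or between *FUN12* and *TIF4632*, and they overlapped in all other neighbouring pairs. Among all 5838 genes, *TIF2* stood at rank 190, *CDC33* at 264, *SUI1* at 296 and *TIF4632* at 1694. Features of the authors' annotation include untranslated regions, so levels per coding length are approximate.

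With New1 as bait, the first place was taken by *SUI1* with 1714 ± 139 CPM per kb, rank 139 of all genes. *SUI1* was also first in untagged cells at 30°C, with 1153 ± 349 CPM per kb (SD, n = 2). That place rests on 142 and 7 reads from 7 and 1 distinct cDNAs, and background at 20°C was not measurable. *TIF2* with 1116 ± 449, *TIF1* with 903 ± 359 and *PAB1* with 815 ± 158 followed, and *CDC33* had 238 ± 82.7 CPM per kb, rank 719 (SD, n = 2). The libraries of *SUI1* and *TIF2* did not overlap, and neither did those of *PAB1* and *CDC33*, while *TIF2*, *TIF1* and *PAB1* overlapped. *TIF3* with 232 ± 2.86, *FUN12* with 183 ± 82.4, *TIF4631* with 175 ± 160, *TIF5* with 161 ± 28.8 and *TIF4632* with 18.8 ± 26.6 CPM per kb came last (SD, n = 2).

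**Figure D1:**
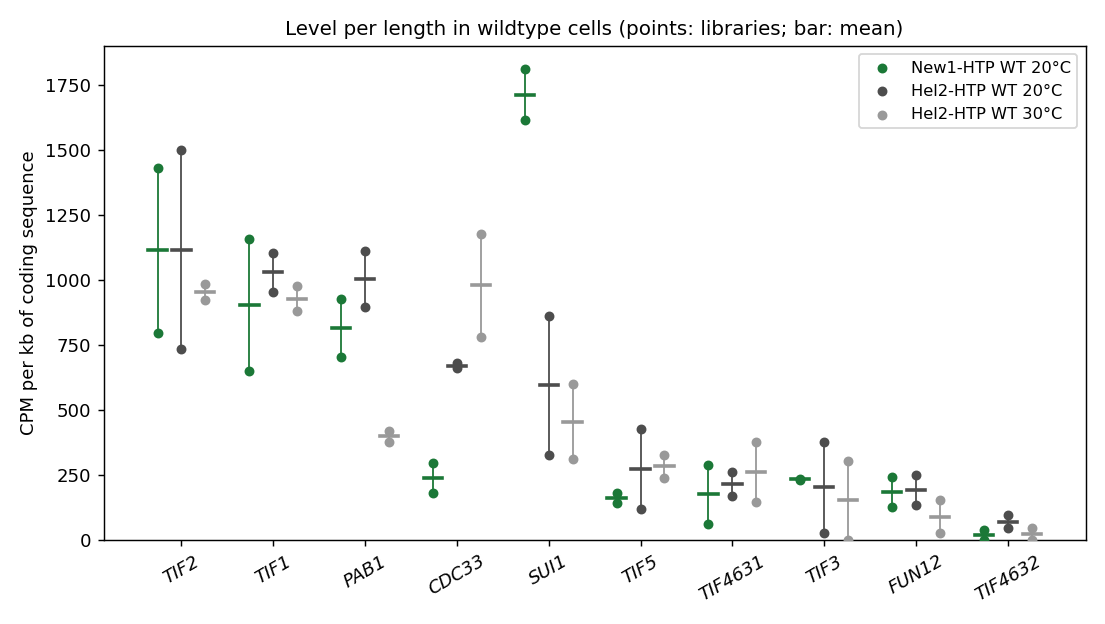
Levels of the 10 mRNAs in CPM per kb of coding sequence (linear axis) in New1-HTP at 20°C, Hel2-HTP at 20°C and Hel2-HTP at 30°C, all in wildtype cells. Points are libraries, joined by a line, and bars are means of 2. *SUI1* stands at 1714 in the mean of New1-HTP and at 594 in Hel2-HTP at 20°C. *CDC33* stands at 238 in New1-HTP and at 670 in Hel2-HTP at 20°C. In untagged cells at 30°C (not drawn) *SUI1* was first too, from 7 and 1 distinct cDNAs.

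To ask which of these mRNAs were contacted by Hel2 to another extent in the absence of New1, *new1Δ* and wildtype Hel2-HTP libraries were compared at each temperature with edgeR's quasi-likelihood test. At 20°C 1 of the 10 members passed an adjusted p of 0.05, *CDC33*, which fell. Across all genes, 67 of 4831 passed (1.39%), 33 rose and 34 fell, and without the replicate block 20 passed. Fitted log2 changes of the members were below 0 for 7 of 10, with a median of −0.55, against 65.6% of all genes and a median of −1.12. With *CDC33* and *SUI1* set to their limits, both remained the lowest of the 10, so the median of −0.55 could not move. At 30°C none of the 10 passed, and 1 of them had an unadjusted p under 0.05 in edgeR, as had 106 of 4831 genes. DESeq2 called none of the 9 to which it gave an adjusted p, against 60 of 1272 genes (4.72%). At this temperature 24 of 4831 genes passed (0.497%), all of which rose, and the members had a median log2 change of −0.02, against 0.13 for all genes. With DESeq2's size factors, log2 changes at 20°C shifted by 0.32 in the median over genes, the median change was −0.77, and 46 of the called genes rose and 23 fell.

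The cap-binding protein mRNA *CDC33* had no read in either *new1Δ* library at 20°C. The 0 and 0 reads allow up to 4.38 and 9.08 CPM in *new1Δ*, against 325 and 608 reads (436 and 424 CPM) in wildtype, from 62 and 79 distinct cDNAs. The groups did not overlap, and the wildtype libraries lay close together. With 3 reads put in each *new1Δ* library, the mean TMM-scaled CPM of *CDC33* was 73.5-fold lower in *new1Δ*. This value counts reads as independent, whereas these libraries held 6.83 and 7.08 reads per distinct cDNA, so it is no lower bound in molecules. The adjusted p was 7.8e-06 in edgeR's quasi-likelihood test, and the fitted log2 change of −11.23 ± 2.00 (SE) depends on the prior count. The mRNA ends on the leucine codon UUG, which belongs to neither codon class. Without the pair of replicate 2, in which the file header disagrees with the label, the adjusted p was 0.0543, and without replicate 1 it was 0.0496. In these fits 1 library per strain is left at 20°C, and it is assumed to vary like the 30°C libraries. Such gaps were not restricted to this gene: 1107 genes reached 100 reads in each wildtype library at 20°C, and 65 of them (5.87%) had 0 reads in both *new1Δ* libraries, 110 had 0 in replicate 1 and 260 had 0 in replicate 2. The part of library complexity in the result was not tested.

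At 30°C *CDC33* was read in every library. It had 232 and 140 reads (238 and 356 CPM) in *new1Δ* and 642 and 184 reads (756 and 502 CPM) in wildtype. Both *new1Δ* libraries lay below both wildtype libraries, and the log2 change of −0.82 ± 1.19 (SE) did not pass (adjusted p = 1 in edgeR's quasi-likelihood test). Untagged cells gave 72 and 3 reads, or 232 and 127 CPM, of which the higher was close to the lower *new1Δ* value. The *new1Δ* effect differed between temperatures by a fitted log2 value of −10.41 ± 2.28 (SE, adjusted p = 0.00473, edgeR's interaction term), 1 of 6 genes that passed among 4831 (0.124%). *CDC33* was the 1 member among these 6, all of which were negative, while DESeq2's size factors shifted the differences by 0.37 in the median over genes and gave 3 positive and 5 negative calls. DESeq2 called *CDC33* as well (adjusted p = 0.0122) among 23 of 2302 genes (0.999%). The edgeR call was lost without the replicate block (adjusted p = 0.0982, edgeR), with distinct cDNAs (adjusted p = 0.188, edgeR), and when any of the 4 pairs was left out.

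*SUI1*, the mRNA of eIF1, was the other member without a read in *new1Δ* at 20°C, with 0 and 0 reads in *new1Δ* and 210 and 153 reads (282 and 107 CPM) in wildtype. The wildtype reads came from 27 and 18 distinct cDNAs, fewer than those of *CDC33*. With 3 reads put in each *new1Δ* library, *SUI1* was 31.9-fold lower in *new1Δ* on TMM-scaled CPM, again with reads counted as independent. It did not pass in edgeR's quasi-likelihood test (adjusted p = 0.490). With DESeq2, which called 247 of 2489 genes (9.92%), its adjusted p was 0.0103. Its coding sequence of 327 bases is the shortest of the 10. The 30°C libraries held 77 and 35 reads (79.1 and 89.0 CPM) in *new1Δ* and 166 and 37 reads (196 and 101 CPM) in wildtype, a log2 change of −0.49 ± 2.77 (SE, adjusted p = 1, edgeR). Untagged cells at 30°C gave 458 and 296 CPM, from 7 and 1 distinct cDNAs, above all 4 Hel2-HTP libraries of that temperature.

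**Figure D2:**
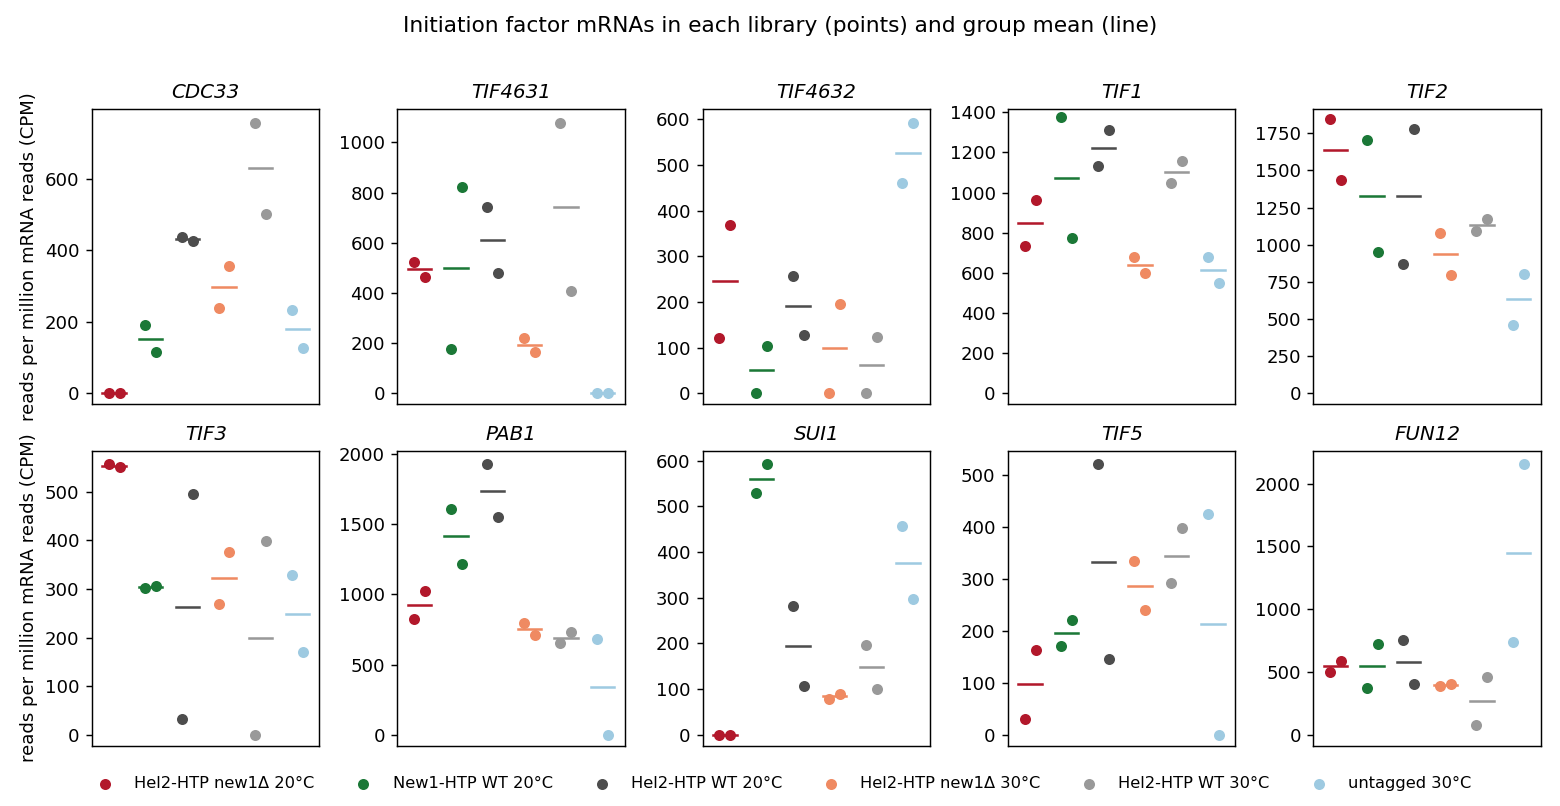
CPM (linear axes that differ between panels) of each mRNA in the libraries of 6 groups. Points are the 2 libraries of a group and lines their mean, with untagged libraries at 20°C left out because of their depth. *CDC33* and *SUI1* are at 0 in both *new1Δ* libraries at 20°C, and *TIF3* is at 32.2 and 495 CPM in the wildtype libraries at 20°C.

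The mRNA of eIF4B, *TIF3*, is the member that ends on the K(AAA) codon. It had 381 and 182 reads (557 and 551 CPM) in *new1Δ* and 24 and 709 reads (32.2 and 495 CPM) in wildtype at 20°C. In these CPM both *new1Δ* libraries lay above both wildtype libraries, by little in the case of wildtype replicate 2. On TMM-scaled CPM the groups overlapped, with 498 ± 99.0 in *new1Δ* and 280 ± 355 in wildtype (SD, n = 2). The log2 change was 1.97 ± 1.53 (SE) with an adjusted p of 0.980 in edgeR's quasi-likelihood test, and it was −0.19 when the pair of replicate 1 was left out. At 30°C *TIF3* had 261 and 148 reads (268 and 376 CPM) in *new1Δ* and 0 and 146 reads (at most 3.53, and 398 CPM) in wildtype. The fitted change of 4.09 ± 2.02 (SE, adjusted p = 1, edgeR) rested on the wildtype library with 0 reads, and without that pair it was 0.19. Untagged cells gave 329 and 169 CPM (102 and 4 reads), within the range of the Hel2-HTP libraries. At 30°C replicate 2 of *new1Δ* and of wildtype lay above both untagged libraries, and replicate 1 of each lay below the higher untagged value. Replicate 1 of wildtype was thus low at both temperatures, and no difference in *TIF3* held beyond the spread of the replicates.

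The eIF4A genes ended on AAC and were among the most read members in each tagged group. *TIF1* had 501 and 318 reads (732 and 963 CPM) in *new1Δ* and 846 and 1882 reads (1135 and 1313 CPM) in wildtype at 20°C, and 679 and 600 CPM in *new1Δ* against 1047 and 1160 CPM in wildtype at 30°C. The *new1Δ* libraries lay below the wildtype libraries at both temperatures, by a log2 value of −0.68 ± 0.66 at 20°C and −0.53 ± 0.66 at 30°C (SE, adjusted p = 0.980 and 1, edgeR). *TIF2* had 1262 and 474 reads (1844 and 1435 CPM) in *new1Δ* and 649 and 2553 reads (871 and 1781 CPM) in wildtype at 20°C, where the groups overlapped. Its change was 0.24 ± 0.61 at 20°C and −0.03 ± 0.58 at 30°C (SE, adjusted p = 1 for both, edgeR). With the reads of both copies summed, the log2 change was −0.15 ± 0.48 at 20°C and −0.26 ± 0.47 at 30°C (SE, adjusted p = 1 for both, edgeR). In untagged cells at 30°C, *TIF1* had 680 and 550 CPM and *TIF2* 461 and 804 CPM, against 1077 and 794 CPM of *TIF2* in *new1Δ* and 1095 and 1171 CPM in wildtype. Untagged cells thus reached the level of the *new1Δ* libraries for both genes in at least 1 library.

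*PAB1*, which encodes the poly(A)-binding protein and ends on the alanine codon GCU, had 566 and 339 reads (827 and 1026 CPM) in *new1Δ* and 1438 and 2225 reads (1929 and 1553 CPM) in wildtype at 20°C. The groups did not overlap, and the log2 change was −1.05 ± 0.64 (SE, adjusted p = 0.980, edgeR's quasi-likelihood test), close to the median of all genes. The 30°C libraries had 798 and 712 CPM in *new1Δ* and 653 and 729 CPM in wildtype, which overlapped (log2 change 0.39 ± 0.63, SE, adjusted p = 1, edgeR). Untagged cells at 30°C gave 683 and 0 CPM, and in the second of these libraries a count of 0 allows 127 CPM.

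The eIF4G paralogs differed in how much they were read. *TIF4631* had 359 and 153 reads (525 and 463 CPM) in *new1Δ* and 555 and 686 reads (744 and 479 CPM) in wildtype at 20°C, and 220 and 163 CPM in *new1Δ* and 1079 and 409 CPM in wildtype at 30°C. At 30°C the *new1Δ* libraries lay below the wildtype libraries (log2 change −1.56 ± 0.98, SE, adjusted p = 1, edgeR), and at 20°C the groups overlapped (−0.42 ± 0.94). It was the 1 member with 0 reads in both untagged libraries at 30°C, which allows 9.67 and 127 CPM. At 20°C *TIF4632* had 82 and 122 reads (120 and 369 CPM) in *new1Δ* and 191 and 182 reads (256 and 127 CPM) in wildtype. The groups overlapped, and the log2 change was 0.08 ± 2.26 (SE, edgeR). At 30°C the read counts were 0 and 77 in *new1Δ*, 0 and 45 in wildtype, and 143 and 14 in untagged cells. Its values with Hel2 at 30°C, at most 196 CPM, lay below the 461 and 592 CPM of untagged cells, so its share of reads did not exceed theirs.

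*TIF5* and *FUN12*, which act in start codon recognition and subunit joining, end on the glutamate codon GAA and did not pass in either comparison. *TIF5* had 21 and 54 reads (30.7 and 163 CPM) in *new1Δ* and 388 and 209 reads (520 and 146 CPM) in wildtype at 20°C, so that the groups overlapped. Its log2 change of −2.09 ± 1.67 (SE, adjusted p = 0.980, edgeR) was −3.79 without the pair of replicate 2 and −0.18 without that of replicate 1. At 30°C *TIF5* had 334 and 239 CPM in *new1Δ* and 291 and 398 CPM in wildtype, which overlapped (log2 change −0.01 ± 1.4, SE, adjusted p = 1, edgeR), and untagged cells gave 425 and 0 CPM, the first above all 4 Hel2-HTP libraries. *FUN12* had 503 and 584 CPM in *new1Δ* and 753 and 405 CPM in wildtype at 20°C, where the *new1Δ* values lay within the wildtype range. At 30°C *FUN12* had 387 and 402 CPM in *new1Δ* and 74.2 and 461 CPM in wildtype. Untagged cells exceeded all of these with 738 and 2158 CPM, from 17 and 10 distinct cDNAs.

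**Figure D3:**
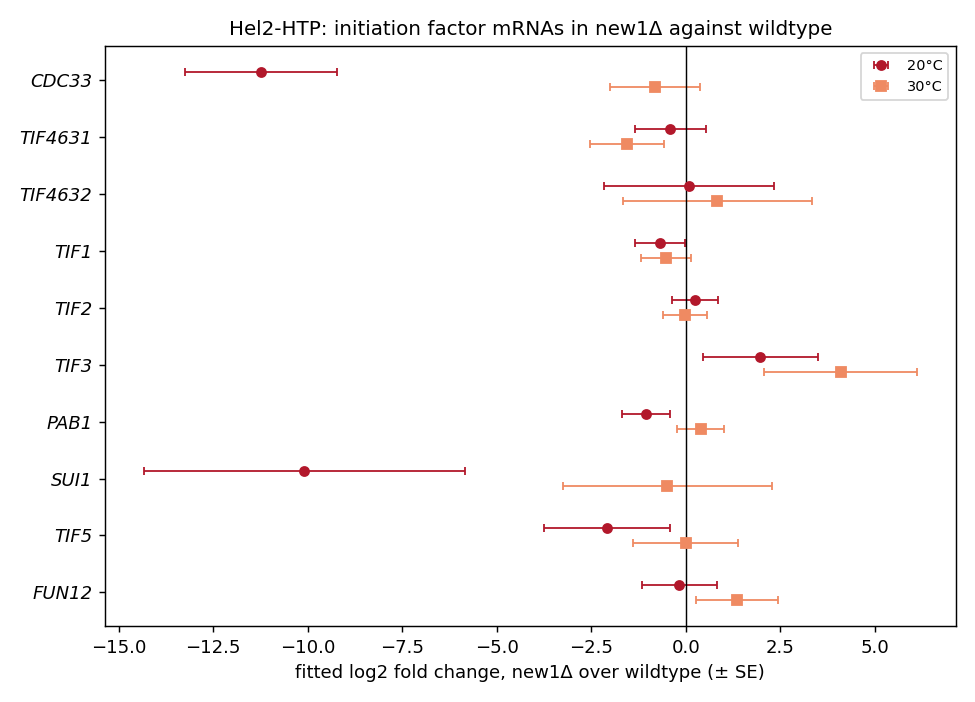
Fitted log2 fold change of each mRNA in *new1Δ* over wildtype Hel2-HTP libraries at 20°C (circles) and 30°C (squares), with standard errors from edgeR. *CDC33* at −11.23 is the member that passed at 20°C, and *SUI1* at −10.09 has a standard error of 4.24. Both values depend on the prior count because *new1Δ* had 0 reads.

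Of 20 other genes of initiation and its control (subunits of eIF2, eIF2B and eIF3, eIF1A, helicases, eIF4E-binding proteins and eIF2A), 19 were tested and none passed in any of the 5 comparisons with edgeR, with at most 2 at an unadjusted p under 0.05. Over all genes, 273 of 4831 had such a p for *new1Δ* against wildtype at 20°C and 106 of 4831 at 30°C. At 20°C 14 of the 19 had a log2 change below 0, with a median of −2.12, against 65.6% and −1.12 for all genes, so their share was near that of all genes. The lowest adjusted p belonged to *SUI2*, the alpha subunit of eIF2, at 20°C, with 0 and 0 reads in *new1Δ*, against 309 and 156 in wildtype (at least 42.5-fold lower, adjusted p = 0.136). DESeq2 called *SUI2* and *GCD7*, the beta subunit of eIF2B, at 20°C (lowest adjusted p = 0.0121) and none of these genes in the other comparisons. Over all genes, DESeq2 called 247 of 2489 with an adjusted p at 20°C (9.92%), and 2 of the 19 is near that share. *HCR1*, a factor loosely bound to eIF3, followed in edgeR with 25 and 0 reads in *new1Δ*, against 166 and 378 in wildtype (adjusted p = 0.618). Among these 20 genes, *RPG1*, *NIP1*, *GCD1* and *EAP1* end on codons of the class of *TIF3*, and *TIF34* on one of the milder class. None of these 5 passed either. At 30°C their fitted log2 changes (± SE, edgeR) were 1.60 ± 0.94, 2.30 ± 0.98, −0.34 ± 3.19, 4.05 ± 4.62 and −0.07 ± 1.48, in the order named. At 20°C they were −0.44 ± 0.92, −0.20 ± 0.85, −2.56 ± 3.54, −4.02 ± 5.21 and 0.64 ± 1.60. *NIP1* at 30°C had an unadjusted p of 0.0189 in edgeR's quasi-likelihood test. It had 934 and 621 CPM in *new1Δ*, 76.6 and 442 CPM in wildtype, and 348 and 127 CPM in untagged cells. *EAP1* had 0 reads in wildtype replicate 1 at 30°C and in *new1Δ* replicate 2 at 20°C.

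To compare the mRNAs contacted by New1 and by Hel2, both baits were set against each other in wildtype cells at 20°C, with the 6 tagged libraries of that temperature in 1 fit. None of the 10 members passed with edgeR, which called 2 of 4149 genes (0.0482%), or with DESeq2, which called 14 of 2138 (0.655%). No member had an unadjusted p under 0.05 in edgeR, against 87 of 4149 genes. The median log2 difference was −0.31, against 0.11 for all genes. *SUI1* had 342 and 603 reads (528 and 592 CPM) with New1 and 210 and 153 reads (282 and 107 CPM) with Hel2, from 44 and 102 against 27 and 18 distinct cDNAs. The libraries did not overlap, and the log2 difference of 1.49 ± 1.25 (SE) did not pass (adjusted p = 1, edgeR). *CDC33* lay the other way, with 123 and 117 reads (190 and 115 CPM) with New1 and 325 and 608 reads (436 and 424 CPM) with Hel2, again without overlap (−1.60 ± 1.45, SE, adjusted p = 1, edgeR). *TIF3*, the K(AAA) member, had 301 and 307 CPM with New1 and 32.2 and 495 CPM with Hel2 (0.03 ± 1.19, SE, adjusted p = 1, edgeR). *PAB1* had 1607 and 1219 CPM with New1 and 1929 and 1553 CPM with Hel2, and the 2 eIF4A genes overlapped between the baits. *TIF4631* had 175 and 823 CPM with New1 and 744 and 479 CPM with Hel2, and *TIF4632* 0 and 103 CPM with New1 and 256 and 127 CPM with Hel2.

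Temperature was compared in wildtype Hel2-HTP libraries, where it goes with the preparation of the libraries. None of the 10 members and none of 4831 genes (0%) passed with edgeR, 1 member and 115 genes had an unadjusted p under 0.05, and DESeq2 called 29 of 2489 genes (1.17%) and none of the members. The member with the unadjusted p under 0.05 was *PAB1*, with 1929 and 1553 CPM at 20°C and 653 and 729 CPM at 30°C (log2 difference 1.31 ± 0.52, SE, adjusted p = 1, edgeR). The libraries of the 2 temperatures did not overlap. *CDC33* had 436 and 424 CPM at 20°C and 756 and 502 CPM at 30°C, also without overlap (−0.53 ± 0.93, SE, adjusted p = 1, edgeR). The difference of *TIF3* (0.41 ± 1.71) rested on 1 library and passed when wildtype replicate 2 at 30°C was left out (10.76, adjusted p = 0.0235), where the remaining library at 30°C had 0 reads and is assumed to vary like the other groups. The other 7 members had log2 differences between −0.26 and 1.49.

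**Figure D4:**
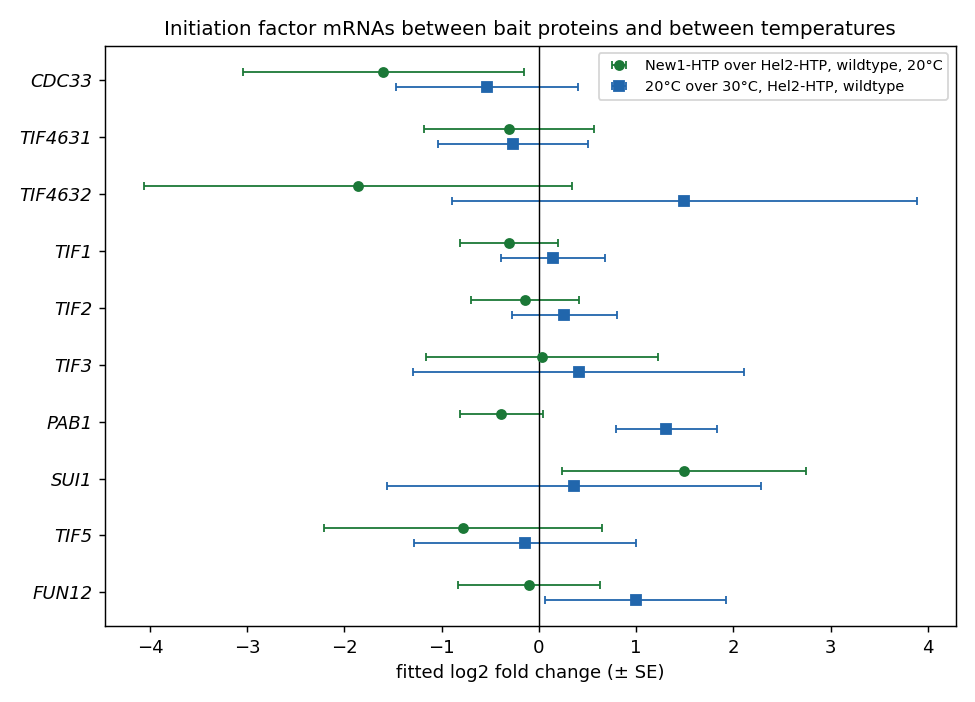
Fitted log2 fold changes with standard errors from edgeR, for New1-HTP over Hel2-HTP in wildtype cells at 20°C (circles) and for 20°C over 30°C in wildtype Hel2-HTP libraries (squares). *SUI1* at 1.49 and *CDC33* at −1.60 lie on opposite sides between the baits, *PAB1* is at 1.31 between temperatures, and none passed.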

How the data were processed

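Reads of 75 bases were aligned by the authors with Novoalign. The deposited counts come from pyReadCounters, version 1.4.4 for 20°C libraries and 1.4.2 for 30°C libraries, and were neither collapsed nor normalized. The counts are sense reads per feature of an Ensembl annotation with untranslated regions. Distinct cDNAs per feature, antisense included, served as an alternative, and deposited RPKM values were not used. Treatment of reads that match 2 mRNAs equally is not given in the sources used here. Of 6454 protein-coding features, 5862 matched R64 names. After removal of 18 mitochondrial or incomplete genes and 6 at a shared locus, 5838 were used. The remaining features held 1.35% to 2.22% of protein-coding reads in tagged libraries.

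All 8 Hel2-HTP libraries entered 1 fit in edgeR 4.0.16 (R 4.3.3; TMM, filterByExpr, quasi-likelihood F-test, Benjamini-Hochberg over all genes tested, threshold 0.05) blocked by replicate pair, and New1-HTP and Hel2-HTP were compared in a fit of the 6 tagged 20°C libraries without this block. Temperature was compared in wildtype with the 8 Hel2-HTP libraries fitted without the block. Each replicate was 1 sequencing run, and the study forms ratios per replicate. In the check of pairing, deviations of same-numbered libraries correlated with r = 0.03 at 20°C, 0.05 at 30°C and 0.00 for New1-HTP and Hel2-HTP. Alternatives included DESeq2 1.42.0. Code was tested on simulated data. P-values measure the spread between 2 replicates per group in fits without the block. In blocked fits they measure how far the difference of *new1Δ* and wildtype varied between replicate pairs. Where a pair or library was left out, the spread is that of the other groups. Tables and plots used Python 3.11.15, pandas 2.3.3 and matplotlib 3.10.9.

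All 10 members are named. Of the other initiation genes, those that passed are named, or the 2 with the lowest adjusted p, and others only for their codon. The 3 genes most like *CDC33* are named by correlation. Members and lists were chosen with earlier results of these data known.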

Additional observations from a re-analysis of the deposited data

Results flagged for a closer look

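The effect of *new1Δ* on *CDC33* differed between temperatures in a test of the difference itself, with a fitted log2 value of −10.41 at 20°C minus 30°C. The value depends on the prior count, since both *new1Δ* libraries at 20°C had 0 reads, while at 30°C they had 232 and 140. The difference was no longer called without the replicate block, with distinct cDNAs, or with any of the 4 pairs left out, with adjusted p up to 1, and temperature goes with the preparation of the libraries.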

How the results depend on the processing

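Of 481 member log2 changes recomputed under alternatives, 423 kept their direction and side of the threshold, 49 changed direction, 7 were no longer called and 2 were newly called; all 49 belong to members that were not called. The cause of each change was not tested unless stated. The library with fewest reads had 330299 on genes, where 0 reads allow 9.08 CPM.

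For *new1Δ* minus wildtype at 20°C, genes called were 247 with DESeq2, 40 with at least 10 reads in every library, 38 with only the libraries compared, 20 with no replicate block, and 19 to 25 with 1 pair left out. Members called were 2 of 10 with DESeq2, against 247 of 2489 genes with an adjusted p (9.92%). With at least 10 reads, members called were 0, and *CDC33* was not tested. Fits with 1 pair left out are given above for *CDC33*. At 30°C, genes called were 60 with DESeq2, 8 with at least 10 reads, 1 with only the libraries compared, 38 with distinct cDNAs, 5 with no replicate block, and 7 to 20 with 1 pair left out. For the difference of both, genes called were 23 with DESeq2, 0 with at least 10 reads, 2 with no replicate block and 0 to 8 with 1 pair left out. Members called were 0 with at least 10 reads, distinct cDNAs or no replicate block, and 0 with any pair left out. DESeq2's size factors shifted New1-HTP minus Hel2-HTP differences by 0.17 in the median over genes. There, genes called were 14 with DESeq2, 4 with no filter, 5 with a replicate block, 0 with only the libraries compared and 3 to 10 with 1 library left out. For 20°C minus 30°C, genes called were 3 with DESeq2's size factors, 29 with DESeq2, 8 with no filter, 4 with at least 10 reads and 1 to 20 with 1 library left out, and members called 0 to 1.

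For *new1Δ* minus wildtype at 20°C, the direction changed for *FUN12* (0.20) with DESeq2's size factors, *FUN12* (0.20) with DESeq2, *FUN12* (0.14) with at least 10 reads in every library, *TIF4632* (−0.36) and *FUN12* (0.031) with distinct cDNAs, *TIF2* (−0.15) with *TIF1* and *TIF2* summed. With 1 pair left out, the range spanned 0 for *TIF2* (−0.66 to 1.37), *TIF3* (−0.19 to 4.39), *FUN12* (−0.30 to 0.18) and *TIF4632* (−0.81 to 1.19). For *new1Δ* minus wildtype at 30°C, the direction changed for *TIF5* (0.095) with distinct cDNAs. With 1 pair left out, the range spanned 0 for *SUI1* (−1.15 to 0.094), *TIF2* (−0.29 to 0.13) and *TIF5* (−0.46 to 0.36). For the difference of these between temperatures, the direction changed for *TIF1* (0.28) with DESeq2's size factors, *TIF1* (0.28) with DESeq2, *TIF1* (0.21) with at least 10 reads in every library, *TIF1* (0.11) with *TIF1* and *TIF2* summed. With 1 pair left out, the range spanned 0 for *TIF2* (−0.56 to 1.56), *TIF4632* (−1.55 to 0.38), *TIF1* (−0.20 to 0.34) and *TIF3* (−8.74 to 1.86). For New1-HTP minus Hel2-HTP, the direction changed for *TIF2* (0.089) with DESeq2's size factors, *TIF2* (0.089) with DESeq2, *TIF2* (0.02) with at least 10 reads in every library, *TIF3* (−0.19) with distinct cDNAs. With 1 library left out, the range spanned 0 for *TIF4631* (−1.94 to 0.44), *FUN12* (−0.75 to 0.35), *TIF1* (−0.68 to 0.0040), *TIF2* (−0.69 to 0.59), *TIF3* (−0.95 to 3.23) and *TIF5* (−1.41 to 0.18). For 20°C minus 30°C in wildtype, the direction changed for *TIF5* (0.17) and *TIF4631* (0.096) with distinct cDNAs. With 1 library left out, the range spanned 0 for *SUI1* (−0.35 to 0.83), *TIF1* (−0.10 to 0.34), *TIF2* (−0.52 to 0.73), *TIF3* (−2.86 to 10.76), *TIF5* (−1.18 to 0.44) and *TIF4631* (−0.74 to 0.40).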

Other observations

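Over the 10 tagged libraries, the 3 genes whose log2(CPM + 1) was most like that of *CDC33* among 4050 genes tested in both fits were *ADE1* (Pearson r = 0.990), *GIC2* (0.987) and *RPL36A* (0.985). The correlations run over libraries that share depth and gaps, and all 3 genes had at most 1 read in each *new1Δ* library at 20°C. *ADE1*, an enzyme of purine synthesis, was unread in both *new1Δ* libraries (0 and 0 reads) and had 137 and 278 reads in wildtype Hel2-HTP at that temperature. *GIC2*, an effector of Cdc42, had 1 and 0 reads in *new1Δ*, against 93 and 333 in wildtype. *RPL36A*, a ribosomal protein gene with a close copy, had 0 and 0 reads in *new1Δ*, against 362 and 396 in wildtype.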
